A study of Homo sapiens with 12 samples.

Results

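The genes described here encode the proteins of the mitochondrial ribosome, as named by symbol. Every protein-coding gene with a symbol made of MRPL or MRPS, a number and at most 1 letter from A to C was taken, which gave 78 genes of the 60662 in the table, 49 of the large subunit (MRPL) and 29 of the small subunit (MRPS). The rule itself uses no measured value, but it was chosen with earlier results of these data known. All 78 passed the filter on low values (4 or more samples with a TPM of 0.5 or above) and were tested among 16815 genes. TPM gives each gene as its length-corrected part of a library, so that every sample has the same total.

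RNA-seq was done on NCI-H295R, a steroid-making line from a human adrenocortical carcinoma, in 12 samples of 3 groups. All cultures were kept without serum for 12 h and then treated for 24 h. The VEH group received vehicle (0.1% DMSO), the CJ28 group 30 µM CJ28, a benzimidazolylurea that inhibits cortisol production, and the MET group 30 µM metyrapone, an inhibitor of the last enzyme of cortisol synthesis. Each group had 4 samples, which the series' design text calls biological replicates, and all came from a single tumour line. The 7 adrenocortical marker genes all passed the filter on low values, with group means of 0.193 to 93.9 TPM. All 7 were lower in CJ28 than in VEH at an adjusted p under 0.05 in limma. Markers of chromaffin cells, leukocytes, endothelium and fibroblasts had group means of 0 to 0.863 TPM, which overlap the low end of the adrenocortical range. Of these 6 genes 1 passed the filter, and on the TPM scale it too was called lower in CJ28. With each sample scaled to its median gene, that gene was not called, while all 7 adrenocortical genes were still called lower. TH, which defines chromaffin cells, was listed at 0 in all samples.

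Mitochondria keep their own ribosome, which translates the few proteins encoded in mitochondrial DNA, nearly all of them subunits of the respiratory chain. Its rRNAs are transcribed inside the organelle, whereas every one of its proteins is encoded in the nucleus, made in the cytosol and imported. Some of these proteins descend from those of bacterial ribosomes, and others were added in mitochondria. In adrenocortical cells the first and last steps of cortisol synthesis take place inside mitochondria.

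In VEH, members had mean levels of 4.37 to 107.7 TPM, with a median of 19.4 TPM for the large and 18.8 TPM for the small subunit. The highest were MRPS24, the counterpart of a bacterial protein at the mRNA entry, with 107.7 TPM and MRPL51, found only in mitochondrial ribosomes, with 106.5 TPM, and their VEH samples overlapped. MRPL33 with 82.9 TPM and MRPL41 with 80.6 TPM came next and also overlapped each other. The lowest were MRPL44, a protein with an RNase-like fold, with 4.37 TPM, MRPL45, which faces the inner membrane at the tunnel exit, with 7.21 TPM, and MRPS17 with 7.25 TPM. Replicates lay close together, with a median coefficient of variation of 4.69% over the 78 genes in VEH. In the order of VEH levels 70 members overlapped with the next lower one, so most neighbours in that order could not be told apart. The table also lists 75 pseudogenes named after members, whose near-identical copies can share reads with them. Their summed TPM was 7.60 for VEH, 7.46 for CJ28 and 6.36 for MET, at most 0.430% of the TPM of the members.

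CJ28 moved members in both directions, and the strongest changes were falls. MRPL27, MRPS28, MRPL51 and MRPS6 had log2 fold changes of -1.03, -0.92, -0.90 and -0.84, while the largest increases were 0.63 for MRPL2, 0.53 for MRPL58 and 0.50 for MRPS18B. In limma on log2(TPM + 0.1), 49 of the 78 members were called in CJ28 against VEH (adjusted p under 0.05), with 18 above and 31 below VEH. This is 62.8% of the members, beside 57.0% of all genes tested. Those higher were 23.1% of the members against 19.9% of all genes, and those lower 39.7% against 37.1%, so the shares lay near those of all genes in each direction. The CJ28 and VEH samples did not overlap for 15 members that were higher and 30 that were lower in CJ28, beside 17.7% and 32.7% of all genes. Fold changes above 0.5 in size on the log2 scale were found in 13 members, or 16.7%, against 33.4% of all genes tested. These shares were not matched for level. All members had VEH means of at least 4.37 TPM, whereas the genes tested reach down to the filter at 0.5 TPM.

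**Figure D1:**
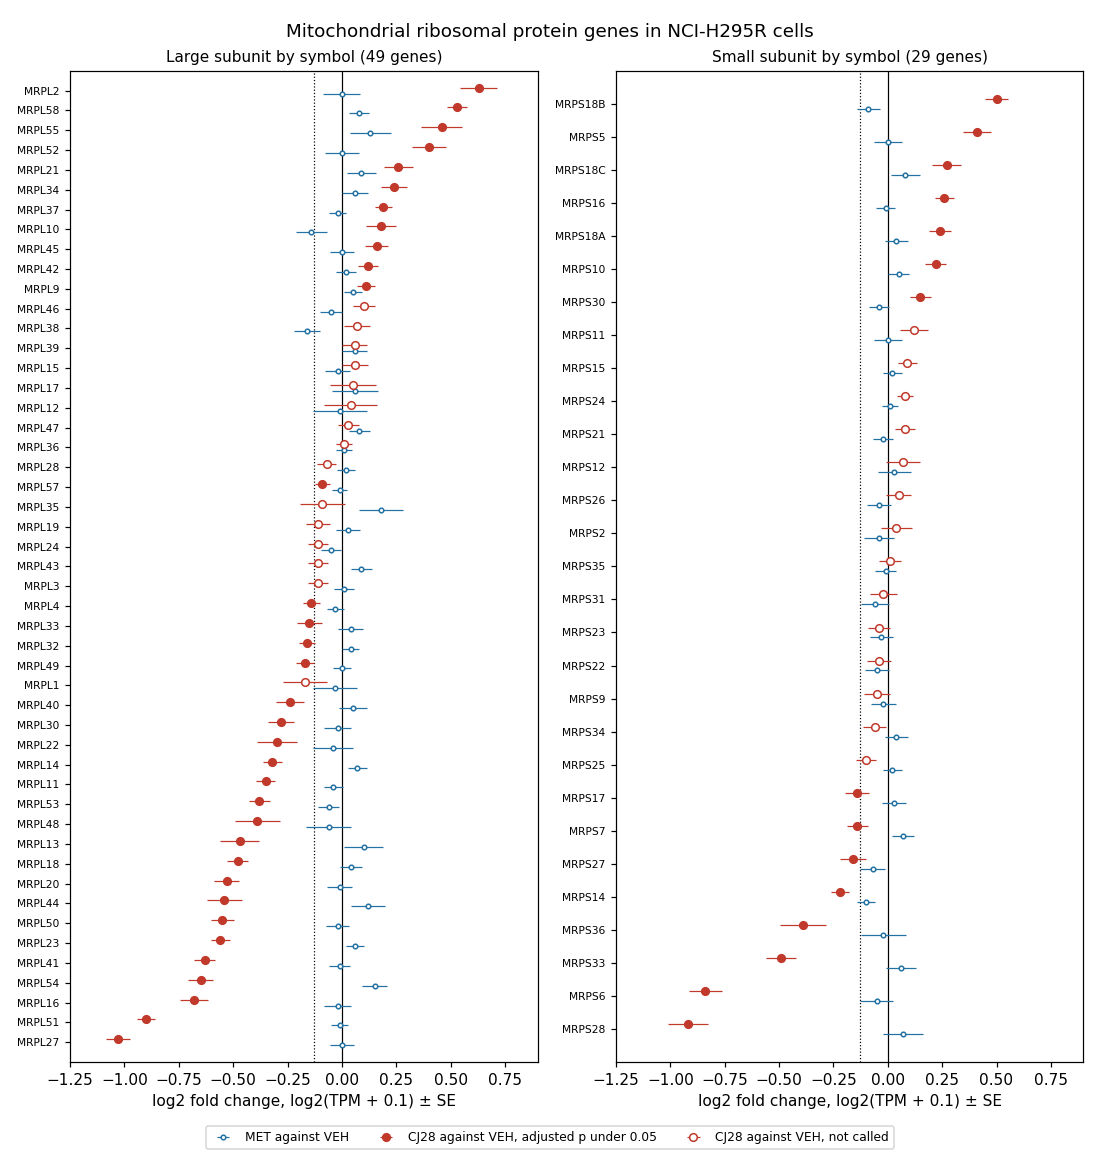
Log2 fold change (x axis, log2(TPM + 0.1) scale, with standard error bars) of each mitochondrial ribosomal protein gene (y axis) for CJ28 against VEH (red, filled at an adjusted p under 0.05) and MET against VEH (blue), 4 samples per group. The dotted line is the median of all tested genes for CJ28, -0.13. CJ28 values run from -1.03 for MRPL27 to 0.63 for MRPL2, and MET values stay between -0.16 and 0.18.

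Because TPM is a share, the direction of small changes depended on the scale. Nuclear protein-coding genes held 24.6% ± 0.229 (SD, n = 4) of all TPM in VEH and 21.3% ± 0.0307 in CJ28, and the 16815 tested genes had a median log2 fold change of -0.13. After median-of-ratios scaling, which sets each sample to its median gene, that median was 0.01, and 32 members were higher and 17 lower, beside 29.3% and 26.3% of all genes. With TPM recomputed over nuclear protein-coding genes, 40 members were higher and 17 lower, beside 39.2% and 26.3%. On all 3 scales 18 members were higher and 17 lower, that is 23.1% and 21.8%, beside 23.0% and 26.3% of the 12506 genes tested on all of them. The remaining members, 14 called lower on the TPM scale and 29 not called there, had no single call that held on all 3 scales in either direction.

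The large and the small subunit did not have the same counts. Of the 49 large-subunit genes 11 were higher and 23 lower in CJ28, that is 22.4% and 46.9%, with a median log2 fold change of -0.11. Of the 29 small-subunit genes 7 were higher and 8 lower, that is 24.1% and 27.6%, with a median of 0.01, and 5 were lower without CJ28-4. Over all genes tested 19.9% were higher and 37.1% lower. After median-of-ratios scaling the counts were 17 higher and 14 lower for the large and 15 higher and 3 lower for the small subunit, with medians of 0.04 and 0.17, beside 29.3% higher and 26.3% lower of all genes. Among the members with the same call on all 3 scales, the large subunit had 11 higher and 14 lower. The small subunit had 7 higher and 3 lower. MRPS18A and MRPS30, among those 7, encode proteins of the large subunit. The TPM-scale counts were also made by structure, with both moved there, MRPS36 left out and ribosomal proteins of other names added. This gave 13 of 52 large-subunit genes higher and 23 lower, and 6 of 30 small-subunit genes higher and 9 lower. The medians were -0.107 and -0.003. The difference between subunits was not tested, since genes are not replicates.

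The summed level of each subunit shows the same by sample. Large-subunit genes summed to 1219.94, 1242.98, 1220.25 and 1211.58 TPM in the 4 VEH samples, to 1077.05, 1073.22, 1093.19 and 1057.53 in CJ28, and to 1251.73, 1262.12, 1214.48 and 1213.43 in MET. Small-subunit genes summed to 662.90, 649.80, 669.15 and 654.45 TPM in VEH, to 671.67, 660.17, 661.68 and 644.46 in CJ28, and to 666.70, 676.07, 647.17 and 647.09 in MET. Every CJ28 sample was thus below every VEH and MET sample for the large subunit, while for the small subunit the 3 groups overlapped. The ratio of large to small was 1.857 ± 0.0389 (SD, n = 4) in VEH, 1.631 ± 0.0210 in CJ28 and 1.874 ± 0.00489 in MET. The CJ28 range of 1.604 to 1.652 did not reach the VEH range of 1.824 to 1.913.

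A few genes made up much of the net change in the large-subunit sum. MRPL51 alone accounted for 33.3% of the net difference between CJ28 and VEH in that sum and MRPL41 for 19.2%, and MRPL27 added 9.88%. These are shares of the change left after rises offset part of the falls, with MRPL52, the largest rise, at -6.32%. Without MRPL51 and MRPL41 the ratio was 1.573 ± 0.0378 (SD, n = 4) in VEH and 1.465 ± 0.0170 in CJ28, with ranges of 1.539 to 1.626 and 1.444 to 1.484 that still did not overlap. As a share of nuclear protein-coding TPM, the large subunit held 0.498% ± 0.00627 (SD, n = 4) in VEH and 0.504% ± 0.00707 in CJ28, and the small subunit 0.268% ± 0.00574 and 0.309% ± 0.00503. On that scale it was the small subunit that was higher in CJ28 while the large subunit overlapped. In bulk RNA, fewer expressing cells and less RNA per cell cannot be told apart.

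**Figure D2:**
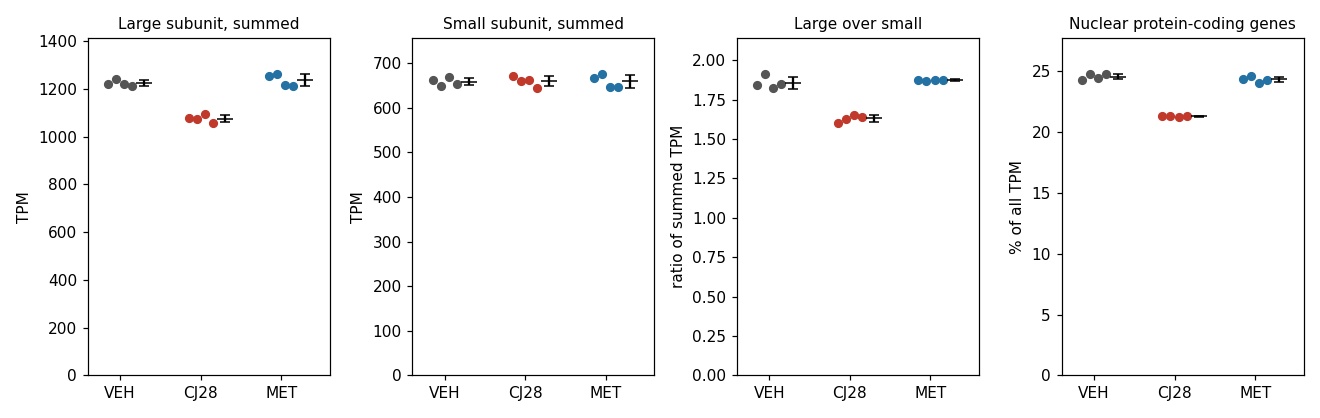
Summed TPM of large-subunit and small-subunit genes, their ratio, and the percentage of TPM held by nuclear protein-coding genes (y axes, from 0) in each sample of VEH, CJ28 and MET (x axes), with mean ± SD of 4 samples in black. The large-subunit sum is 1075 TPM in CJ28 and 1224 in VEH, the small-subunit sums overlap, and the ratio is 1.631 in CJ28 and 1.857 in VEH.

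MRPL27 had the largest change of any member. It is the kin of a bacterial protein that reaches towards the peptidyl transferase centre, where peptide bonds are made, and lies at chr17:50367857-50373207 on the minus strand (GRCh38). Its level was 27.45, 31.9, 27.77 and 27.59 TPM in VEH, 14.48, 14.37, 13.86 and 13.35 in CJ28, and 30.78, 29.02, 26.86 and 27.98 in MET. All CJ28 samples were below all others, a 2.04-fold lower level with a log2 fold change of -1.03 (SE 0.057, adjusted p = 1.16e-08 in limma). With median-of-ratios scaling it was -0.87 on the log2 scale.

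MRPL51 (chr12:6491886-6493841, minus strand) had 103.17, 109.18, 108.4 and 105.17 TPM in VEH, 58.45, 54.41, 60.4 and 54.8 in CJ28, and 111.06, 102.46, 106.38 and 103.44 in MET. The CJ28 samples lay apart from the other groups, with a log2 fold change of -0.90 (SE 0.040, adjusted p = 1.62e-09 in limma) and -0.75 after median-of-ratios scaling. Its exons share 383 bases, 27.6% of their length, with NCAPD2 on the opposite strand, a condensin gene that fell from 26.5 to 13.0 TPM. The libraries were stranded, but the strand setting of the quantification is not given in the sources used here, so the reads of this overlap cannot be told apart.

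MRPL41, another protein without bacterial kin (chr9:137551879-137552555, plus strand), had 86.34, 77.22, 81.72 and 77.26 TPM in VEH, 49.0, 53.87, 50.81 and 54.8 in CJ28, and 77.91, 79.86, 77.52 and 84.92 in MET. The CJ28 samples were again all lowest (log2 fold change -0.63, SE 0.048, adjusted p = 2.5e-07 in limma). MRPL16, whose bacterial kin lies where tRNA binds, had 17.5 ± 1.00 TPM in VEH (SD, n = 4, here and below) and fell to 10.9 ± 0.899 TPM in CJ28 (log2 fold change -0.68). MRPL54, a mitochondrial addition, fell from 22.6 ± 1.52 to 14.4 ± 0.776 TPM (log2 fold change -0.65). MRPL44, the member of lowest level, fell from 4.37 to 2.98 TPM (log2 fold change -0.54). All of these falls held on the 3 scales.

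MRPL2, the kin of an rRNA-binding protein next to the peptidyl transferase centre, led the increases (chr6:43054029-43059438, minus strand). It had 14.75, 11.64, 14.47 and 15.69 TPM in VEH, 22.33, 21.36, 22.79 and 20.75 in CJ28, and 12.48, 15.19, 14.35 and 14.14 in MET. All CJ28 samples exceeded all others (log2 fold change 0.63, SE 0.085, adjusted p = 4.26e-05 in limma). MRPL2 shares 633 exon bases with AL355385.2, which had 0.29 TPM in VEH and 0.06 in CJ28.

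MRPL58, a peptidyl-tRNA hydrolase built into the ribosome that can free stalled chains (chr17:75012670-75021261, plus strand), had 13.55, 13.1, 12.28 and 12.57 TPM in VEH, 18.91, 19.1, 19.07 and 17.44 in CJ28, and 13.16, 14.26, 13.73 and 13.2 in MET. CJ28 was above VEH and MET in every sample (log2 fold change 0.53, SE 0.046, adjusted p = 8.46e-07 in limma). MRPL55 rose from 15.3 ± 2.15 to 21.1 ± 2.18 TPM, MRPL52 from 29.5 ± 1.39 to 38.9 ± 2.44, and MRPL21 by a log2 fold change of 0.26. MRPL52 is a mitochondrial addition, and MRPL55 and MRPL21 have bacterial kin. These 5 increases, too, were called on all 3 scales.

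Not every abundant or well-studied large-subunit gene changed. MRPL12, the kin of the bacterial stalk protein that recruits elongation factors, had 9.66 TPM in VEH and 9.83 in CJ28 (log2 fold change 0.04, SE 0.12, adjusted p = 0.824 in limma). MRPL33 had 82.9 ± 3.85 TPM in VEH and 74.9 ± 5.98 in CJ28 with overlapping samples. Its adjusted p was 0.046 in limma, and the log2 fold change of -0.15 became 0.00 after median-of-ratios scaling. The call was also lost without VEH-1, VEH-2, VEH-3, CJ28-2 or CJ28-4. MRPL45, a gene of low level, was by contrast called higher on all 3 scales. It had 7.21 TPM in VEH and 8.07 in CJ28 (log2 fold change 0.16, adjusted p = 0.0211 in limma). On the TPM scale the call was lost without VEH-3, CJ28-1 or CJ28-4 (adjusted p = 0.0636, 0.0565 and 0.0505 in limma). After median-of-ratios scaling its log2 fold change was 0.31 (adjusted p = 2.31e-04 in limma).

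Of the structural regions of the large subunit, the central protuberance, which contacts tRNAs and the small subunit, had 0 of its 6 genes higher and 4 lower (MRPL18, MRPL27, MRPL40 and MRPL48). Here and for the other groups below, 19.9% of all genes tested were higher and 37.1% lower. After median-of-ratios scaling 2 of the 6 were higher and 2 lower, where all genes had 29.3% higher and 26.3% lower. The 3 stalk genes had 1 higher (MRPL10), 1 lower (MRPL11, from 23.7 ± 0.792 to 18.6 ± 0.82 TPM) and 1 not called. Of the 6 genes at the exit of the peptide tunnel, 1 was higher (MRPL45) and 2 lower (MRPL22 and MRPL23, log2 fold changes -0.30 and -0.56). The 29 large-subunit genes listed with bacterial kin had 5 higher and 13 lower, with a median log2 fold change of -0.11. The other 20 had 6 higher and 10 lower, with a median of -0.10. MRPL55, which was higher, was counted among these 20 although it has bacterial kin. After median-of-ratios scaling the 29 had 8 higher and 8 lower, and the other 20, again with MRPL55 among those higher, had 9 higher and 6 lower. On that scale 29.3% of all genes were higher and 26.3% lower.

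In the small subunit, MRPS28 had the largest fall (chr8:79918717-80030289, minus strand). Its level was 17.3, 16.0, 18.42 and 15.25 TPM in VEH, 9.78, 8.98, 8.07 and 8.31 in CJ28, and 20.56, 17.93, 16.8 and 15.32 in MET. No CJ28 sample reached the VEH or MET range (log2 fold change -0.92, SE 0.092, adjusted p = 2.7e-06 in limma).

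MRPS6, the kin of a bacterial protein of the small subunit's platform (chr21:34073224-34143034, plus strand), had 16.49, 17.34, 17.13 and 20.66 TPM in VEH, 10.31, 9.85, 8.76 and 10.76 in CJ28, and 16.96, 18.23, 16.9 and 16.74 in MET. All CJ28 samples were lowest (log2 fold change -0.84, SE 0.076, adjusted p = 1.08e-06 in limma), and 265 of its exon bases belong also to SLC5A3. MRPS33 fell from 27.6 to 19.7 TPM (log2 fold change -0.49). These were the 3 small-subunit genes lower on every scale. MRPS14, with bacterial kin, had a log2 fold change of -0.22 on the TPM scale (adjusted p = 7.99e-04 in limma) and of -0.07 after median-of-ratios scaling (adjusted p = 0.25).

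**Figure D3:**
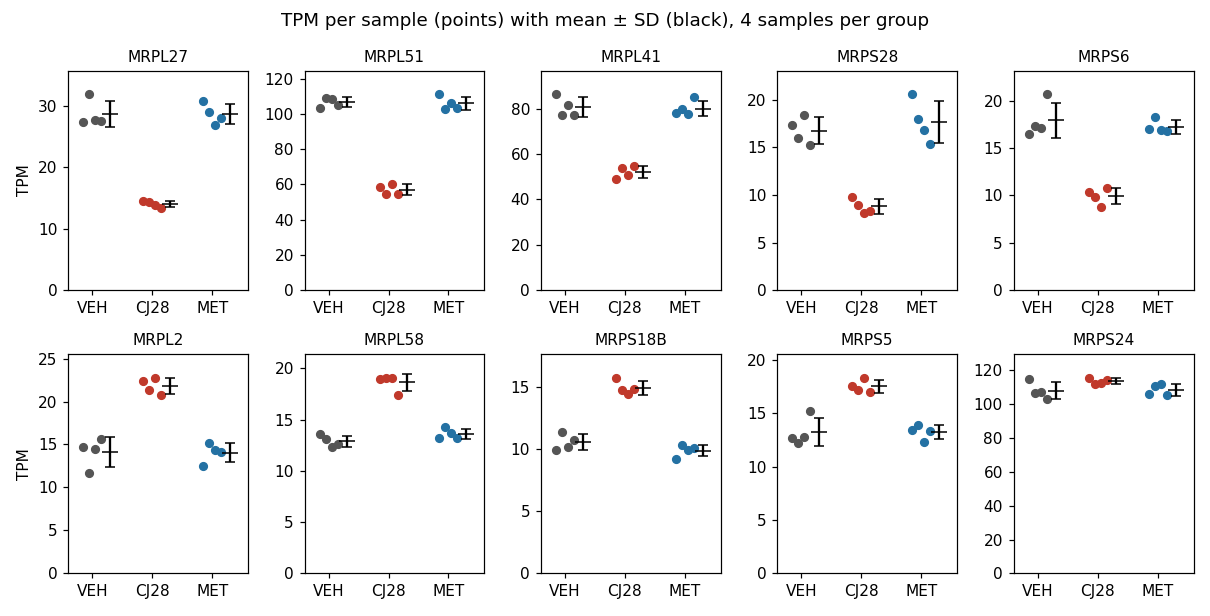
TPM (y axes, from 0) of 10 members in each of the 4 samples of VEH, CJ28 and MET (x axes), with mean ± SD in black. MRPL27, MRPL51, MRPL41, MRPS28 and MRPS6 are lower in every CJ28 sample, MRPL2, MRPL58, MRPS18B and MRPS5 are higher in every CJ28 sample, and MRPS24 in CJ28 overlaps with VEH, with its lowest CJ28 value of 111.84 TPM just above the highest in MET, 111.79.

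The 3 genes descended from the bacterial small-subunit protein S18 were all higher in CJ28. MRPS18B (chr6:30617840-30626395, plus strand) had 9.94, 11.38, 10.12 and 10.72 TPM in VEH, 15.73, 14.69, 14.4 and 14.78 in CJ28, and 9.22, 10.28, 9.88 and 10.06 in MET. The CJ28 samples lay above all VEH and MET samples, which overlapped each other (log2 fold change 0.50, SE 0.053, adjusted p = 5.15e-06 in limma). MRPS18C rose from 21.1 to 25.6 TPM (log2 fold change 0.27) and MRPS18A, whose protein sits in the large subunit, from 16.6 to 19.6 TPM (0.24). Of MRPS18A's exon bases 50.9% overlap RSPH9 on the opposite strand, which had 0.55 TPM in VEH, and of MRPS18C's 40.2% overlap ABRAXAS1, also on the opposite strand, which had 2.19 TPM in VEH and 4.03 in CJ28.

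MRPS5, whose bacterial kin helps to keep decoding accurate (chr2:95085369-95149434, minus strand), had 12.72, 12.18, 12.82 and 15.19 TPM in VEH, 17.59, 17.2, 18.35 and 16.96 in CJ28, and 13.41, 13.86, 12.28 and 13.38 in MET. Every CJ28 value lay above the highest VEH value (log2 fold change 0.41, SE 0.065, adjusted p = 1.62e-04 in limma). MRPS16, also with bacterial kin, rose from 21.4 to 25.8 TPM (log2 fold change 0.26). MRPS30, which like MRPS18A sits in the large subunit, had 24.0 TPM in VEH and 26.6 in CJ28 (0.15, adjusted p = 0.0171 in limma), a call lost without VEH-1, VEH-3 or CJ28-3 (adjusted p = 0.0502, 0.0510 and 0.0521 in limma).

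The most abundant small-subunit genes did not pass the test on the TPM scale. MRPS24 had 107.7 ± 5.05 TPM in VEH and 113.4 ± 1.71 in CJ28 (adjusted p = 0.0898 in limma), but was called after median-of-ratios scaling (log2 fold change 0.23, adjusted p = 9.5e-04) and on the TPM scale without VEH-1 (0.11, adjusted p = 0.0142 in limma). It shares 23.2% of its exon bases with the readthrough gene URGCP-MRPS24, which had 0.96 TPM in VEH and 2.05 in CJ28. MRPS35 had 41.9 and 42.3 TPM and MRPS34 38.2 and 36.5 TPM. MRPS35 was called higher after median-of-ratios scaling (0.17, adjusted p = 0.0256 in limma), and both were with TPM over nuclear protein-coding genes (0.22 for MRPS35 and 0.15 for MRPS34). Among those of low level, MRPS17 had 7.25 and 6.58 TPM with an adjusted p of 0.0498 in limma, a call lost after median-of-ratios scaling and on leaving out any VEH sample but VEH-4 or any CJ28 sample, and MRPS31 had 7.96 and 7.85 TPM. MRPS36, which despite its name belongs to the oxoglutarate dehydrogenase complex, had 13.1 and 9.92 TPM (log2 fold change -0.39, adjusted p = 0.0066 in limma, and 0.067 after median-of-ratios scaling). By kin, with MRPS18A, MRPS18B, MRPS30 and MRPS36 placed in neither list, 16 small-subunit genes with bacterial ancestors had 4 higher and 5 lower and 9 mitochondrial additions 0 higher and 2 lower, against 10 and 2 and against 2 and 1 after median-of-ratios scaling. All genes had 19.9% higher and 37.1% lower, and 29.3% and 26.3% after that scaling.

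Metyrapone left no member called. In MET against VEH 0 of the 78 members had an adjusted p under 0.05 in limma, beside 0.00595% of all genes tested, and 3 had an unadjusted p under 0.05, beside 5.2% of all genes. The MET and VEH samples overlapped for all 78, where 0.779% of all genes were higher and 2.03% lower without overlap. The 3 genes at an unadjusted p under 0.05 were MRPL38 (log2 fold change -0.16), MRPL54 (0.15) and MRPS14 (-0.10). Log2 fold changes ranged from -0.16 to 0.18, the latter for MRPL35 with an SE of 0.10, and the medians were 0.00 for the large and -0.01 for the small subunit. The smallest adjusted p in limma was 0.933, which does not show that levels were equal.

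At the same dose and time, CJ28, a benzimidazolylurea, and metyrapone, a pyridyl ketone, were also compared directly. Here limma called 51 members (adjusted p under 0.05), with 18 higher and 33 lower in CJ28, beside 55.5% of all genes, with 20.9% higher and 34.6% lower. The large subunit had 11 higher and 25 lower and the small subunit 7 higher and 8 lower. With TPM over nuclear protein-coding genes these counts were 20 and 14 for the large and 19 and 3 for the small subunit. On that scale 5039 of the 12506 genes tested were higher and 3165 lower. On the TPM scale the large subunit had 7 higher without MET-4, and the small subunit had 5 lower without CJ28-2. CJ28 and MET samples did not overlap for 45 members, 16 higher and 29 lower in CJ28, beside 18.9% and 31.3% of all genes. The log2 fold change of CJ28 over MET was -1.03 (SE 0.057, adjusted p = 1.2e-08 in limma) for MRPL27, -0.99 for MRPS28, 0.63 for MRPL2 and 0.59 for MRPS18B, each without overlap between the groups. It was 0.05 (SE 0.12) for MRPL12 and 0.03 (SE 0.049) for MRPS35, which were not called. This comparison shares its CJ28 samples with the one against VEH.

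The mitochondrial ribosome also holds proteins with other names. PTCD3, an RNA-binding protein of the small subunit, rose from 39.7 to 47.75 TPM in CJ28 (log2 fold change 0.26), and CHCHD1, also of the small subunit, fell from 12.7 to 9.13 TPM (-0.47). AURKAIP1 had a log2 fold change of -0.27 (adjusted p = 4.83e-05 in limma) that was -0.11 after median-of-ratios scaling. DAP3, the GTP-binding protein of the small subunit, had 49.9 and 52.1 TPM and GADD45GIP1 of the large subunit 18.2 and 17.7 TPM, and neither passed the test on this scale. DAP3 was called higher after median-of-ratios scaling (0.21, adjusted p = 0.0017 in limma), and both were with TPM over nuclear protein-coding genes (0.27 for DAP3 and 0.16 for GADD45GIP1).

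Of 26 assembly factors, which modify rRNA and help the subunits form, 7 were higher and 7 lower, where all genes tested had 19.9% higher and 37.1% lower. RCC1L and FASTKD2 had log2 fold changes of -0.53 and -0.39, and GTPBP10 and the rRNA methyltransferase TFB1M of 0.47 and 0.45. Of 18 translation factors, 4 were higher and 6 lower, beside the same shares of all genes. OXA1L, which inserts new chains into the inner membrane, rose from 14.4 to 20.5 TPM and the initiation factor MTIF2 by 0.42 on the log2 scale, while the elongation factor TSFM fell from 30.4 to 23.0 TPM and RMND1 had a log2 fold change of -0.42. After median-of-ratios scaling the counts were 10 higher and 2 lower for assembly and 7 and 2 for translation factors, beside 29.3% and 26.3% of all genes.

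Genes for the upkeep and transcription of mitochondrial DNA had 2 of 10 higher and 7 lower, with a median log2 fold change of -0.47. All genes had a median of -0.13, with 19.9% higher and 37.1% lower. After median-of-ratios scaling 2 of the 10 were higher and 6 lower, beside 29.3% and 26.3% of all genes. The DNA polymerase subunits went in opposite directions, with -0.60 for the catalytic POLG and 0.92 for the accessory POLG2, which had 3.48 and 6.66 TPM. MTERF1, a termination factor, had a log2 fold change of -0.57, and POLRMT, the mitochondrial RNA polymerase, one of 0.45. TFAM, which packs mitochondrial DNA and was named after its values were seen, fell from 25.1 to 17.7 TPM.

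Of 9 nuclear regulators of mitochondrial genes 8 were tested, with 2 higher and 4 lower, beside 19.9% and 37.1% of all genes. GABPA, the DNA-binding subunit of an ETS factor, had 6.52, 7.09, 7.1 and 7.19 TPM in VEH and 3.47, 3.35, 3.6 and 3.67 in CJ28. The groups lay well apart, with a log2 fold change of -0.97 (adjusted p = 9.54e-09 in limma). NRF1 had a smaller fall, from 6.09 to 4.63 TPM (log2 fold change -0.39). The coactivator PPARGC1A rose from 1.35 to 3.64 TPM (1.36) and the nuclear receptor ESRRA from 5.13 to 8.68 TPM (0.75). In MET no gene of these lists was called.

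**Figure D4:**
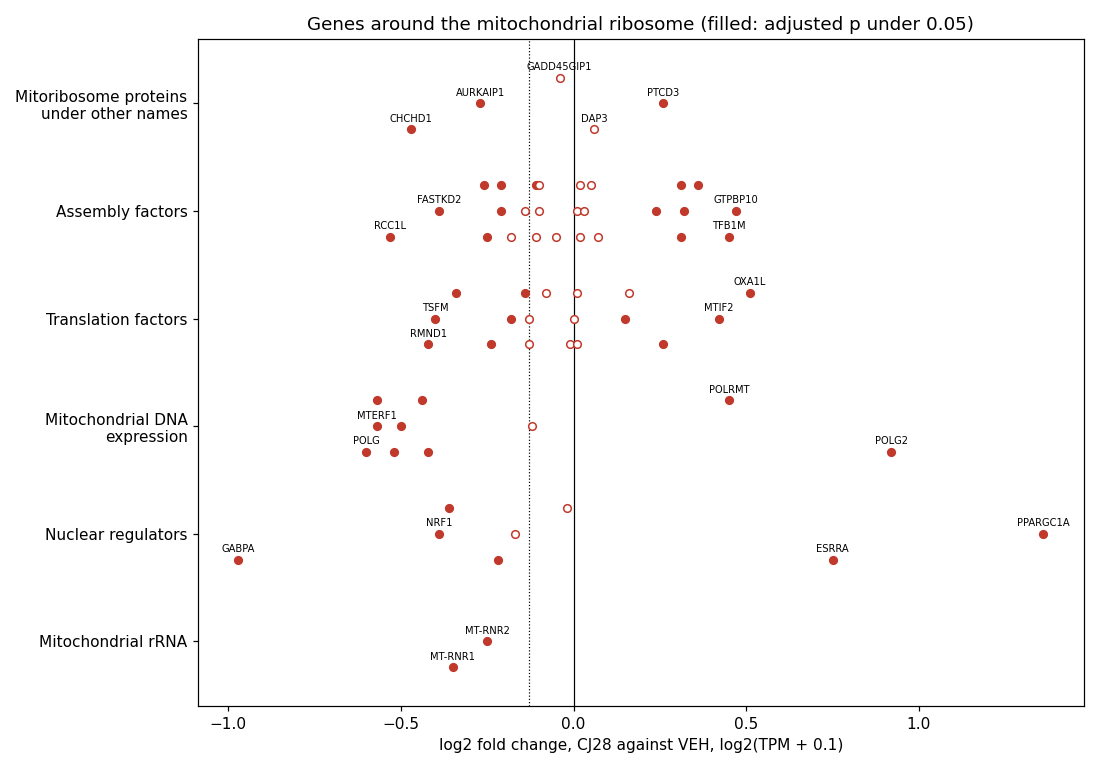
Log2 fold change for CJ28 against VEH (x axis, log2(TPM + 0.1) scale) of genes in 6 lists around the mitochondrial ribosome (rows), 1 point per gene, filled at an adjusted p under 0.05. The dotted line is the median of all tested genes, -0.13. The mitochondrial DNA list has 7 of 10 genes lower, and the regulators run from -0.97 for GABPA to 1.36 for PPARGC1A.

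The rRNAs of the mitochondrial ribosome were measured in libraries depleted of ribosomal RNA, and the part of that depletion in their levels was not tested. The large-subunit rRNA gene MT-RNR2 had mean TPM of 86760 ± 336 for VEH, 73046 ± 1463 for CJ28 and 84183 ± 1002 for MET, without overlap between any groups (p = 0.0286 in a two-sided exact permutation test, which 4 against 4 samples cannot go below, and adjusted p = 0.0514 over 9 tests). On the log2 scale MT-RNR2 changed by -0.25 in CJ28 (adjusted p = 9.24e-05 in limma), and by -0.10 after median-of-ratios scaling (adjusted p = 0.20). The small-subunit rRNA gene MT-RNR1 had 32636 ± 6760 TPM in VEH and 25442 ± 4595 in CJ28 with overlapping samples (exact permutation test, p = 0.143). MT-RNR1 was called lower in limma on the TPM scale (log2 fold change -0.35, adjusted p = 0.0448), and not after median-of-ratios scaling (-0.20, adjusted p = 0.21).

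The promoters of these genes were read from RefSeq windows of GRCh38.p14 that run from 250 bases before to 50 after the start, which were found for 69 of the 78 members. The ETS motif CCGGAAG, searched on both strands as were the others, was in 29 member windows, 42.0%, beside 19.7% of the windows of tested protein-coding genes. The YY1 motif AAGATGGCG was in 13 windows, 18.8% beside 4.07%, and the NRF1 motif, GCGCA and GCGC with any base between them, in 8, 11.6% beside 12.1%. TATAAA was in 2 windows, 2.90% beside 5.68%. The windows with and without an ETS match belonged to genes with median log2 fold changes of -0.06 and -0.07 in CJ28, and those with and without a YY1 match to genes with 0.10 and -0.10. Matches are a description of letters and not binding sites.

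Windows are shown for the 2 large-subunit genes with the largest falls and for the largest increase of each subunit that had a window. Capitals mark ETS or YY1 matches. MRPL27 lies at chr17:50373135-50373434 (minus strand), MRPL51 at chr12:6493213-6493512 (minus), MRPL58 at chr17:75012420-75012719 (plus) and MRPS18B at chr6:30617590-30617889 (plus).
MRPL27: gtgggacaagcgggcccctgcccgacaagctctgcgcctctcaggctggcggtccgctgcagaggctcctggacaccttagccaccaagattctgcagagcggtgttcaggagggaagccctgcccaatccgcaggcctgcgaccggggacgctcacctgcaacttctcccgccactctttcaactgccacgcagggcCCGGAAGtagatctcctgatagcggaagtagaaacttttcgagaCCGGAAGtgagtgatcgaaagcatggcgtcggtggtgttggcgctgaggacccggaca
MRPL51: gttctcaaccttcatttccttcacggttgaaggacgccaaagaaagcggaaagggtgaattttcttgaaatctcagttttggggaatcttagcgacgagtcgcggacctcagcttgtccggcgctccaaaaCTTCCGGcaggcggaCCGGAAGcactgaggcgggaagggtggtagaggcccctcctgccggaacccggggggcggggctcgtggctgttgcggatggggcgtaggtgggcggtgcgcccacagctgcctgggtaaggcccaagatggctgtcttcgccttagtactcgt
MRPL58: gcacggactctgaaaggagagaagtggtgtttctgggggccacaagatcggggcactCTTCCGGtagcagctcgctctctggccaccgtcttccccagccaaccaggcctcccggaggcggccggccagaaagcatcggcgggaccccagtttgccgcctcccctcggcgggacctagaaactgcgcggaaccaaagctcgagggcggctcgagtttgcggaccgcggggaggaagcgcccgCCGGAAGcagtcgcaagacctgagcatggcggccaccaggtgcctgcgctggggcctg
MRPS18B: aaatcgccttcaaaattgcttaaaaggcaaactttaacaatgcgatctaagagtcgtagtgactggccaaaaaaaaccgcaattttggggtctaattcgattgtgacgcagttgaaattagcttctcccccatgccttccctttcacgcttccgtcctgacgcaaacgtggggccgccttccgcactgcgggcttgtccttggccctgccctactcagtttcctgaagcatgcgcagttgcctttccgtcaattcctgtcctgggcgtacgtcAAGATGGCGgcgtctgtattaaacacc
MRPL27 and MRPL58, which moved in opposite directions, both have an ETS match whose first base is 8 bases before the start, and each has a second one farther upstream. MRPL51 has ETS matches at -119 and -104, and MRPS18B has a YY1 match 24 bases after the start.

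Some of these genes start close to a neighbour on the other strand, and how common this is among all genes was not counted. Such a head-to-head partner, a tested protein-coding gene with a start within 1000 bases on the opposite strand, was found for 26 members. In 12 of them both genes were called in CJ28, both higher in 1, both lower in 6 and in opposite directions in 5. Of all genes tested 57.0% were called, 19.9% higher and 37.1% lower. Shares over all head-to-head pairs were not computed. MRPL27 fell while EME1, a DNA repair gene whose start lies 13 bases away, had a log2 fold change of 0.24, and MRPL54 fell while APBA3 had 0.83. MRPS18B rose while its partner PPP1R10 had -0.43. MRPL51 and NCAPD2 fell together, with -0.90 and -1.02. Pearson's r between the fold changes of members and partners was -0.10 over 26 genes of the same libraries, a description only. MRPL46 and MRPS11 are partners of each other and were counted from both sides, with log2 fold changes of 0.10 and 0.12, and neither was called.

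**Figure D5:**
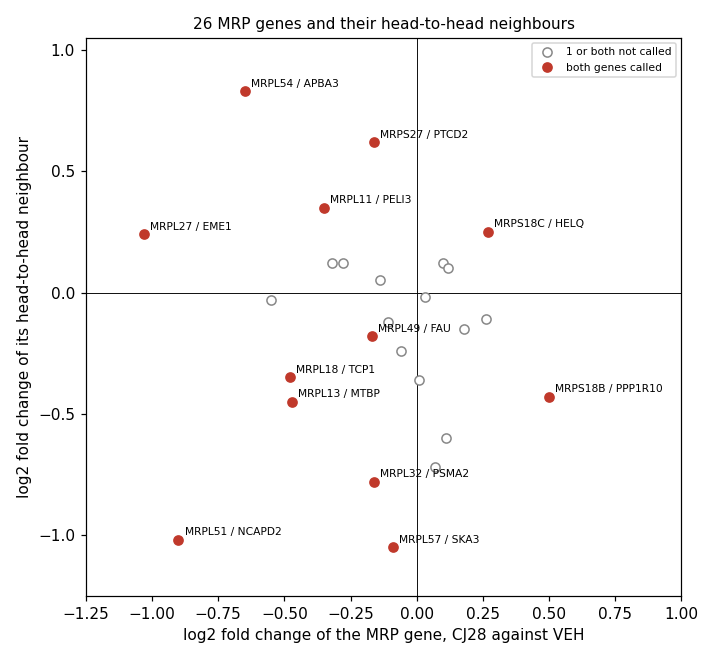
Log2 fold change for CJ28 against VEH of 26 mitochondrial ribosomal protein genes (x axis) and of the neighbour that starts within 1000 bases on the opposite strand (y axis). Filled points are the 12 with both genes called, of which 6 have both lower, 1 both higher and 5 opposite signs. Of all genes tested 19.9% were higher and 37.1% lower.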

How the data were processed

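RNA depleted of ribosomal RNA was sequenced from stranded libraries of 12 samples, 4 per group. The authors trimmed reads with Cutadapt (version 2.8), mapped them to GRCh38 with STAR (version 2.7.10b) and quantified genes with RSEM (version 1.3.3). The deposited values are TPM to 2 decimals, which keep no depth, so counting error is unknown. The authors' DESeq2 counts were not analysed here.

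From the TPM, log2(TPM + 0.1) of all 12 samples was analysed in limma (3.58.1, under R 4.3.3; eBayes with trend) for the 16815 genes that reached 0.5 TPM in 4 or more samples, with two-sided p-values adjusted by Benjamini-Hochberg over all of them. Log2 fold changes on this scale understate those of low genes. Alternatives were other pseudocounts, filters and scalings, a fit of only the groups compared, a replicate block, no trend, removal of length and GC trends, and leaving out each sample. Sums were recomputed without MRPL51, MRPL41 or MRPS24, and subunits by structure, after values had been seen. Single values were compared by exact permutation tests. Python (version 3.11.15) with pandas (version 2.3.3), scipy (version 1.17.1) and matplotlib (version 3.10.9) was used.

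The members, lists and named genes were chosen with earlier results of these data known. Named were, per subunit, the 5 largest called increases and decreases in CJ28, the 3 highest and 2 lowest in VEH, and genes with a known special role. From the lists the 2 largest called changes in each direction were taken, with the ribosomal proteins of other names and the rRNAs. Other genes were named after their values were seen. Deviations from group means were not shared by samples of equal replicate number. The fit was tested on simulated data.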

Additional observations from a re-analysis of the deposited data

Results flagged for a closer look

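In groups of 4 samples, a single value far from the other 3 was looked for by Dixon's criterion in 177 groups of named genes. It was met in 9, and chance alone meets it in about 1 of 20 groups. For members these were MRPL27 in VEH, with 31.9 TPM against 27.45 to 27.77 in the other samples, MRPL44 in VEH, with 4.04 TPM against 4.46 to 4.5, MRPL58 in CJ28, with 17.44 TPM against 18.91 to 19.1, MRPL21 in CJ28, with 18.65 TPM against 21.33 to 21.7, and MRPS6 in MET, with 18.23 TPM against 16.74 to 16.96. For genes around the ribosome these were GADD45GIP1 in CJ28, with 20.25 TPM against 16.57 to 17.11, RMND1 in MET, with 13.32 TPM against 12.73 to 12.83, OXA1L in VEH, with 14.77 TPM against 14.24 to 14.31, and GABPA in VEH, with 6.52 TPM against 7.09 to 7.19. With the stray VEH sample of MRPL27 or any other sample left out, its log2 fold change in CJ28 stayed between -1.05 and -0.97.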

How the results depend on the processing

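Counts of called members moved chiefly with the scale. After median-of-ratios scaling and with TPM over nuclear protein-coding genes, CJ28 against VEH gave 17 and 20 higher and 14 and 14 lower large-subunit genes (medians 0.043 and 0.096), and 15 and 20 higher and 3 and 3 lower small-subunit genes (medians 0.167 and 0.220, with 23 called in all on the second scale). CJ28 against MET gave 20 higher large-subunit genes on the second scale, 14 and 14 lower, 14 and 19 higher small-subunit genes and 3 and 3 lower. In that comparison 4824 of 16815 genes were higher and 4391 lower on the first scale. On the second scale 5039 of 12506 were higher and 3165 lower. The MET against VEH median of the large subunit was 0.032 after median-of-ratios scaling. With all genes above 0 TPM, 5 small-subunit genes were lower in CJ28 than in VEH. With 1 sample left out, the medians in CJ28 ranged from -0.135 to -0.103 (large) and -0.013 to 0.035 (small), lower small-subunit genes from 5 (without CJ28-4) to 7 against VEH and from 5 (without CJ28-2) to 7 against MET, and higher large-subunit genes against MET from 7 (without MET-4) to 12. The ratio of sums in CJ28 was 1.544 without MRPL51, 1.465 without MRPL41 as well, 1.969 without MRPS24 and 1.556 with subunits by structure. In VEH these ratios were 1.695, 1.573, 2.220 and 1.753. The CJ28 samples lay below the VEH samples without overlap in each case.

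Signs of named members turned on those 2 scales for MRPL33 (0.00 and 0.06), MRPS34 (0.09 and 0.15), MRPS17 (0.01 and 0.07) and MRPS31 (0.13 and 0.18), and with 1 sample left out for MRPS31 (-0.06 to 0.02), MRPS35 (-0.01 to 0.06) and MRPL12 (-0.09 to 0.14). The cause was not tested. In MET against VEH 0 members were called under any alternative. With the replicate block, 9 large-subunit genes were higher and 22 lower in CJ28 than in VEH, and 7 and 8 small-subunit genes, and no sign changed. The correlation of deviations of samples with equal number was 0.0236 on average for CJ28 and VEH, so the numbers do not pair the samples.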
